A study of Homo sapiens with 6 samples.

Results

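The proteasome genes were taken as all protein-coding genes of the count table whose symbol begins with PSMA, PSMB, PSMC, PSMD, PSME, PSMF or PSMG followed by a number. The symbols name the subunits of the core particle (PSMA and PSMB), the ATPases of the regulatory particle (PSMC), its other base and lid subunits with their assembly chaperones (PSMD), the activators (PSME), an inhibitor (PSMF1) and the assembly factors of the core (PSMG). The rule found 48 of the 52408 genes in the table. PSMB3, a structural subunit of the beta ring, has no row and was not analysed here. PSMC3IP matched the rule by its symbol alone: it encodes a meiotic recombination factor and is no proteasome subunit.

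RNA was sequenced from HepG2 cells, an established line from a human liver tumour, after 24 h of exposure to ellagic acid (EA), a polyphenol of fruits and nuts, at 50 µM. Control cells received an equal volume of the solvent DMSO for the same time. Each group had 3 libraries, and nothing in the labels ties them to separate cultures. The p-values therefore reflect the spread among these 6 samples alone, and that spread may be technical. Both groups are the same tumour line, with 1 dose and 1 time of exposure.

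Between 22987425 and 25973621 reads were assigned to genes in each DMSO library and between 15738089 and 19202292 in each EA library, so that a gene with 0 reads in 1 library could still lie at up to 0.117 to 0.187 CPM (read counts scaled to a common library size), the level of 3 reads, a limit that covers counting error only. EA replicate 3 stood further from the other EA libraries than any other replicates from each other. Without it, 40 of 46 proteasome genes were called lower and 4 higher, as with it. Of all 16444 genes tested in that fit, 6819 were lower and 6794 higher. All 10 hepatocyte markers were expressed, with a summed level of 51031 ± 1598 CPM (SD, n = 3) in DMSO and 13491 ± 269.7 CPM (SD, n = 3) in EA, 9 of them lower and 1 higher with EA. Leukocyte markers (6 genes) summed to 3.23 CPM in DMSO and 3.43 CPM in EA, with PTPRC, CD3E and CD68 at 0 reads in each library, CD14 lower (33 to 49 reads in DMSO, 1 to 9 in EA) and CSF1R higher (2 to 3 reads in DMSO, 29 to 36 in EA). Endothelial markers (2 genes with a row) summed to 2.32 to 2.44 CPM in DMSO and 3.02 to 3.92 CPM in EA, with VWF higher and CDH5 lower. Fibroblast and stellate markers (4 genes) summed to 16.4 to 17.7 CPM in DMSO and 4.61 to 6.39 CPM in EA, with PDGFRB and COL1A1 lower and the other genes of the list under the filter. Marker levels thus differed between the same groups as every result below, and their part in those was not tested. In such bulk samples of a single line, a change in every cell and a change in some of the cells cannot be told apart.

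The proteasome is the protease that degrades proteins tagged with ubiquitin. Its barrel-shaped core, the 20S particle, has outer alpha rings that gate the entrance and inner beta rings that carry the active sites, and the 19S regulatory particle on its ends binds, unfolds and feeds in the substrates. Cells usually make the subunits in concert, largely through the transcription factor NFE2L1, and cells that present antigens exchange the catalytic beta subunits for those of the immunoproteasome.

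Most proteasome transcripts were lower in EA than in DMSO, relative to the other genes of each library. Amounts of RNA per cell cannot be read from these levels. Of the 46 members that passed the filter on low counts, 40 were called lower and 4 higher (PSMA2, PSMD2, PSMD9 and PSME4), and 2 were not called (PSMC5 and PSMD12). A gene was called where the quasi-likelihood test of edgeR, with p-values adjusted by Benjamini-Hochberg over the whole table, gave an adjusted p under 0.05. Over all 15648 genes tested, 81.0% were called, 40.5% lower and 40.5% higher. The members' median log2 fold change was -0.82, against 0.0044 over all genes tested and -0.09 over the 12681 protein-coding ones. A fall of 2-fold or more was called for 15 members, against a share of 21.5% of all genes tested, and a rise of that size for 3 members, against 23.4%. In 40 members every EA library lay below every DMSO library, in 5 every EA library lay above, and in 1 the groups overlapped, against 41.5% and 41.4% of all genes tested that were separated downwards and upwards. Reads of the 48 members made up 0.596% ± 0.0075 of each DMSO library and 0.455% ± 0.016 of each EA library (SD, n = 3 each).

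**Figure D1:**
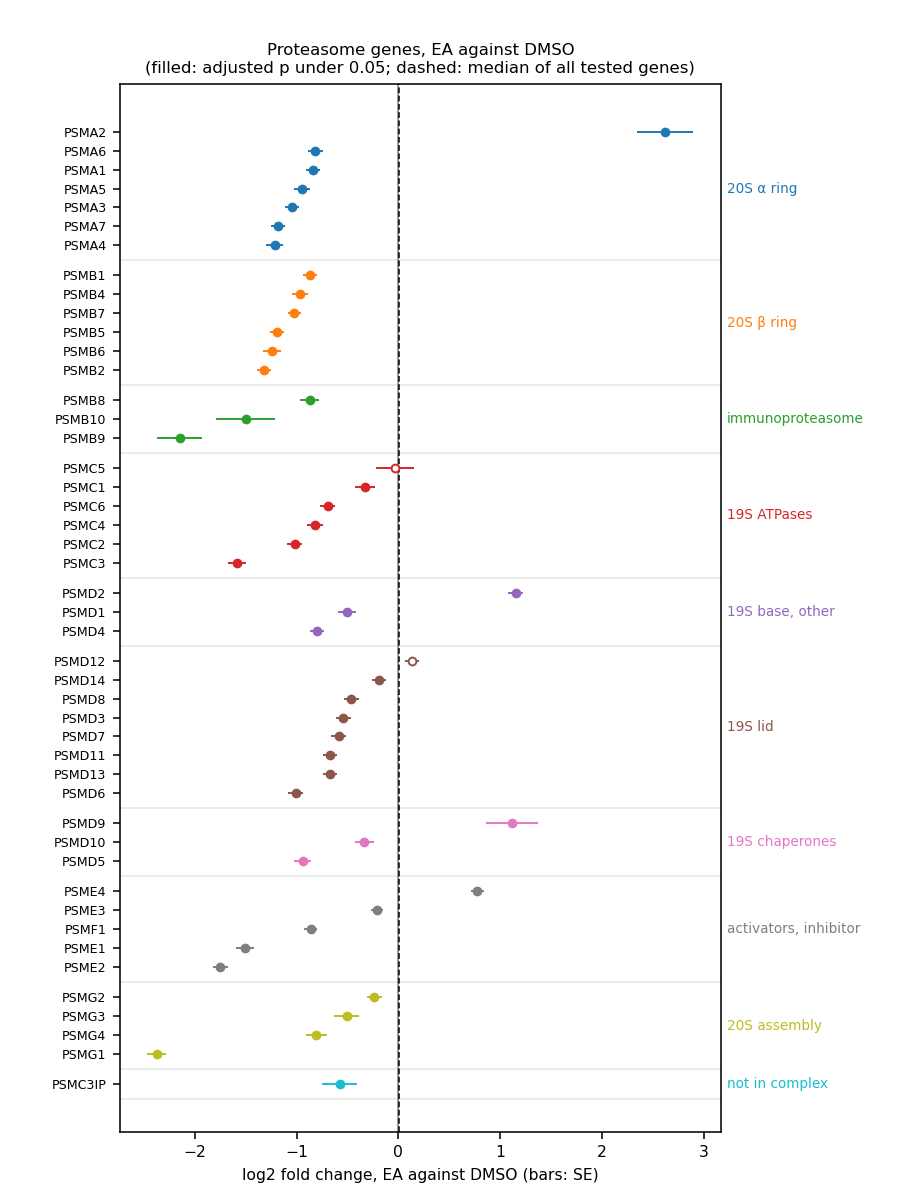
Log2 fold change (EA minus DMSO) of the 46 tested proteasome genes, grouped by their place in the complex, with bars of the SE, filled points for called genes and a dashed line at the median of all tested genes. The core, activator and assembly genes reach the lowest values (PSMG1 at -2.37). PSMA2, PSMD2, PSMD9 and PSME4 lie to the right of 0, as does PSMD12 (0.13), which was not called.

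The groups of the complex differed in the size of the fall. The 16 tested core genes (PSMA and PSMB) had a median log2 fold change of -1.03, with 15 lower and 1 higher. The 6 ATPase genes (PSMC) had a median of -0.76, with 5 lower and 1 not called. The 14 PSMD genes had a median of -0.53, with 11 lower, 2 higher and 1 not called. Of the 4 activator genes (PSME), 3 were lower and 1 higher, with a median of -0.86, and all 4 assembly factor genes (PSMG) were lower, with a median of -0.66. These medians are a description, and the differences between the groups were not tested.

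**Figure D2:**
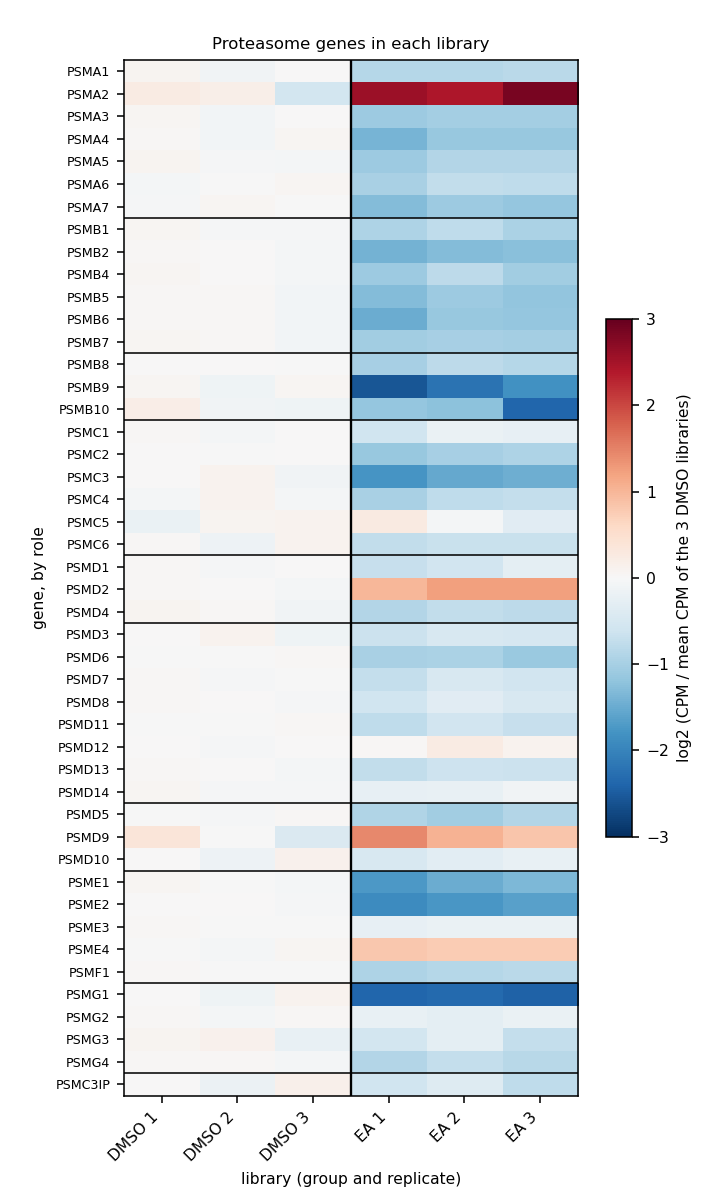
Log2 level of each tested proteasome gene in the 6 libraries relative to the gene's mean over the 3 DMSO libraries, with genes ordered by role. Colours run from -3 to 3, and the 3 libraries of a group share their colour for most genes, with PSMA2, PSMD2, PSMD9 and PSME4 in the reverse pattern.

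Promoter sequence was examined because the members moved together and because NFE2L1 acts through the antioxidant response element, whose core is written TGACNNNGC. RefSeq windows on GRCh38.p14, from 250 bases before to 50 bases after a start site, were found for 42 of the 48 members (52 windows). Both strands were searched. The core motif was found in 14 of the 52 member windows (26.9%) and in 13.3% of all 35116 windows of the same length. By gene, it was present in 14 of the 42 members with a window (33.3%). These were 10 of the 34 called lower that had a window, 2 of the 4 called higher, and both that were not called. A gene can have several windows and the share over all genes was not computed, so the by-gene counts have no like background. The following stretches, with the match in capitals on the gene's strand, show it in 5 genes that fell by 2-fold or more (PSMG1, PSMB9, PSME1, PSME2 and PSMA4), in a lid gene with a smaller fall (PSMD3), in the lid gene that was not called (PSMD12) and in the activator gene that rose (PSME4).
PSMG1, chr21:39183616-39183644, minus strand, within an exon of PSMG1: gcccagggcaTGACAGCGCgggcgggcgg
PSMB9, chr6:32854034-32854062, plus strand, within the PSMB9 gene outside its exons: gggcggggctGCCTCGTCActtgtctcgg
PSME1, chr14:24136098-24136126, plus strand, outside annotated genes: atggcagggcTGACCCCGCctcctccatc
PSME2, chr14:24146767-24146795, minus strand, within exons of PSME2 and of RNF31 on the other strand: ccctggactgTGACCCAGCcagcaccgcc
PSMA4, chr15:78540650-78540678, plus strand, within an exon of PSMA4: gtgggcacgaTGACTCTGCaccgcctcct
PSMD3, chr17:39980760-39980788, plus strand, outside annotated genes: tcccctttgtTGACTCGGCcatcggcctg
PSMD12, chr17:67366724-67366752, minus strand, outside annotated genes: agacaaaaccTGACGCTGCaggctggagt
PSME4, chr2:53971009-53971037, minus strand, within an exon of ACYP2 on the other strand: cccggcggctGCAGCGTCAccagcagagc
In PSMB9 and PSME4 the capitals are the motif read on the opposite strand. PSMC3, PSMB10 and PSMB2, which fell more than PSMA4, had windows without a match. TGACTCAGC, which is 1 form of the core motif, was in 0 of the 52 member windows and in 0.561% of all windows. Bases of the element beyond the core were not searched for. CCAAT, the box bound by NF-Y, was in 21 member windows (40.4%) and in 34.6% of all windows, and CACGTG, the E-box, was in 2 (3.85%) and in 7.26%. A match describes the letters in these windows and does not show that a factor binds there.

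The alpha ring forms the gate of the core and the surface on which the regulatory particle docks. Of its 7 genes, 6 fell and PSMA2 rose. The level of PSMA7 was 288, 309.7 and 294 CPM in the DMSO libraries and 121, 139 and 133 CPM in the EA libraries. Every EA library thus lay below every DMSO library, and the log2 fold change was -1.18 (SE 0.07, adjusted p = 3.37e-10, edgeR). PSMA4 had the deepest fall in the ring, from 133, 122 and 134 CPM in DMSO to 49.5, 58.7 and 59.1 CPM in EA, again with no overlap. Its log2 fold change was -1.22 (SE 0.08, adjusted p = 1.23e-09, edgeR). The remaining ring genes that fell were PSMA1, PSMA3, PSMA5 and PSMA6, with log2 fold changes of -0.84, -1.04, -0.95 and -0.82.

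PSMA2 stood apart from its ring in level and direction. It was counted at 14, 12 and 8 reads in the DMSO libraries and at 44, 47 and 63 reads in the EA libraries. On the CPM scale these were 0.545, 0.522 and 0.315 in DMSO and 2.74, 2.49 and 3.33 in EA, so the EA libraries lay above the DMSO libraries without overlap. The log2 fold change was 2.62 (SE 0.28, adjusted p = 3.9e-07, edgeR). Per kilobase of transcript, PSMA2 reached 0.31 CPM in DMSO and 1.92 CPM in EA, the lowest level of the constitutive subunits in both groups, while the ring contains as many PSMA2 proteins as any other alpha subunit. In GENCODE 29, 54.1% of the PSMA2 transcript is shared with a gene on the same strand (AC010132.3), and the part of that overlap in the low count was not tested. PSMA6 shares 81.0% of its transcript with another gene and was counted at 118 ± 4.40 CPM in DMSO and 66.8 ± 5.76 CPM in EA (SD, n = 3 each). Other genes also cover 53.2% of the PSMA1 transcript, 50.4% of PSMD7 and 54.4% of PSMC3IP. The part of these overlaps in the counts was not tested.

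The beta ring carries the proteolytic sites. All 6 constitutive genes with a row fell, by log2 fold changes that lay close together, between -1.32 and -0.87. PSMB5, the chymotrypsin-like subunit and main target of proteasome inhibitors such as bortezomib, was at 399, 402 and 372 CPM in DMSO and at 159, 183 and 171 CPM in EA. Its highest EA library lay far below its lowest DMSO library, with a log2 fold change of -1.19 (SE 0.07, adjusted p = 3.5e-10, edgeR). PSMB6, the caspase-like subunit, went from 112, 112 and 102 CPM in DMSO to 38.9, 49.3 and 49.0 CPM in EA, a log2 fold change of -1.25 (SE 0.09, adjusted p = 5.24e-09, edgeR). PSMB7, the trypsin-like subunit, went from 179, 176 and 163 CPM to 83.9, 86.0 and 85.0 CPM, a log2 fold change of -1.02 (SE 0.06, adjusted p = 8.69e-10, edgeR). For neither of these did the groups overlap.

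The structural beta subunits have no active site and hold the ring together. PSMB2 had the deepest fall of the constitutive ring, from 132, 129 and 123 CPM in DMSO to 47.8, 51.7 and 53.9 CPM in EA. The log2 fold change was -1.32 (SE 0.07, adjusted p = 1.18e-10, edgeR). PSMB1 had the smallest, from 195, 182 and 184 CPM to 98.7, 111 and 97.5 CPM, with a log2 fold change of -0.87 (SE 0.07, adjusted p = 1.29e-08, edgeR). PSMB4 lay between them at -0.97. In each of these genes the EA libraries were all below the DMSO libraries.

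The immunoproteasome subunits PSMB8, PSMB9 and PSMB10 replace PSMB5, PSMB6 and PSMB7 in cells exposed to interferon. All 3 were expressed at low levels and fell. PSMB8 was at 22.3, 22.2 and 22.1 CPM in DMSO and 11.1, 12.8 and 12.4 CPM in EA, a log2 fold change of -0.87 (SE 0.10, adjusted p = 6.02e-07, edgeR). PSMB9 was at 4.67, 4.05 and 4.64 CPM in DMSO and 0.747, 0.954 and 1.27 CPM in EA, from 120, 93 and 118 reads and 12, 18 and 24 reads. Its log2 fold change of -2.15 (SE 0.22, adjusted p = 2.75e-07, edgeR) was the second lowest of the 46 members, after PSMG1. PSMB10 went from 2.88, 2.31 and 2.28 CPM to 1.12, 1.06 and 0.476 CPM, a log2 fold change of -1.50 (SE 0.29, adjusted p = 0.000177, edgeR). The groups did not overlap in any of these genes. GENCODE 29 places 45.3% of the PSMB10 transcript over another gene, whose part in the count was not tested.

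Set against the subunit it replaces, per kilobase of transcript, PSMB8 was at 6.54% ± 0.25 of PSMB5 in DMSO and 8.13% ± 0.15 in EA (SD, n = 3 each). PSMB9 was at 4.48% ± 0.50 of PSMB6 in DMSO and 2.34% ± 0.42 in EA. PSMB10 was at 1.16% ± 0.12 of PSMB7 in DMSO and 0.839% ± 0.34 in EA. In these libraries the PSMB8 share was higher with EA and the PSMB9 share lower, each without overlap, and the PSMB10 share overlapped between the groups. In a two-sided exact permutation test the first pair of shares gave p = 0.1 each, the smallest that 3 against 3 libraries allow, and the PSMB10 share gave p = 0.2; adjusted over the 7 ratios computed, these were 0.117 and 0.2, so none passed and none could have. PSMB11, the thymus subunit, had 0 to 3 reads in every library, and PSMA8, the testis subunit, had 0 reads throughout.

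**Figure D3:**
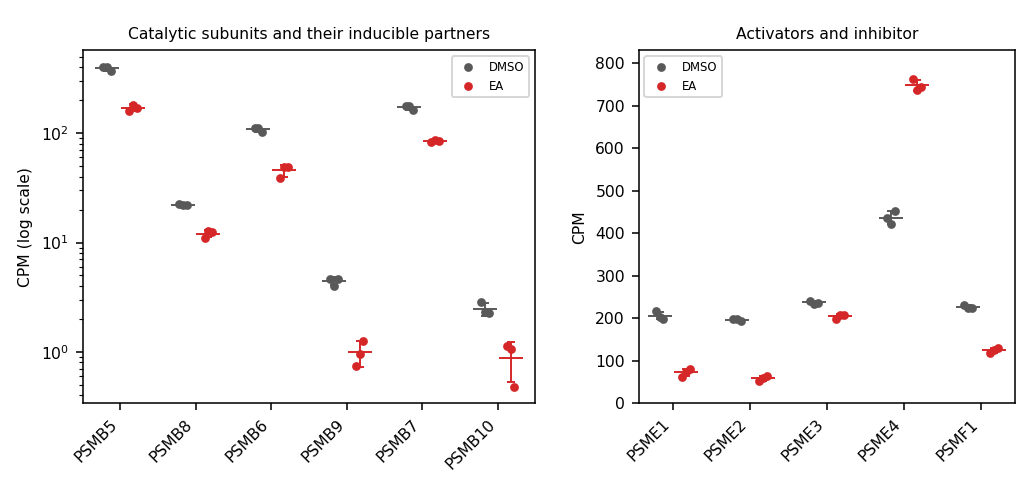
Levels in CPM of the catalytic and immunoproteasome subunits and of the activators in each library (points) with the group's mean and SD (lines), on a log axis for the first set and a linear axis for the activators and the inhibitor PSMF1. PSMB5 and its peers lie lower in all EA libraries, PSME1 and PSME2 lie at 80.7 CPM or lower in EA, and PSME4 lies at 737 CPM or higher in EA.

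The 6 ATPases form the ring of the regulatory base that unfolds substrates and opens the core's gate. In this group 5 genes fell, and their log2 fold changes were more spread than those of the beta ring, from -1.58 to -0.33. PSMC3 was at 123, 131 and 113 CPM in DMSO and at 35.6, 42.4 and 44.2 CPM in EA. The groups were far apart, and the log2 fold change of -1.58 (SE 0.09, adjusted p = 2.47e-10, edgeR) was the lowest of all 30 constitutive 26S genes in the table. PSMC2, PSMC4 and PSMC6 fell by 1.02, 0.82 and 0.69 on the log2 scale, PSMC4 by 0.53 with GC content and length corrected for. PSMC1 went from 36.9, 34.7 and 36.0 CPM to 23.7, 31.1 and 30.4 CPM, a log2 fold change of -0.33 (SE 0.10, adjusted p = 0.00604, edgeR), and 82.1% of its transcript lies over NRDE2 on the other strand. It did not pass a test against a minimum fold of 1.2 (adjusted p = 0.126). PSMC5 was not called: it had 93, 101 and 114 reads in DMSO and 81, 75 and 62 reads in EA.

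On the CPM scale PSMC5 was at 3.62, 4.39 and 4.48 in DMSO and at 5.04, 3.97 and 3.28 in EA, and the groups overlapped. The log2 fold change was -0.03 (SE 0.19, adjusted p = 0.881, edgeR). Like PSMA2, it was counted far below its ring partners, at 2.64 CPM per kilobase in DMSO against 8.06 CPM per kilobase or more for the other ATPases. FTSJ3 covers 27.2% of its transcript, and whether this bears on the count was not tested.

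The regulatory base also holds 2 large scaffold proteins, PSMD1 and PSMD2, and the ubiquitin receptor PSMD4. These moved apart. PSMD2, on which shuttle proteins carrying ubiquitinated substrates and the deubiquitinase USP14 dock, was at 414, 409.9 and 390.4 CPM in DMSO and at 810.5, 945 and 944 CPM in EA. The 3 EA libraries lay far above the 3 DMSO libraries, and PSMD2 rose with a log2 fold change of 1.15 (SE 0.07, adjusted p = 9.45e-10, edgeR), a fold of 2.22. PSMD1 was at 269.9, 256 and 265 CPM in DMSO and at 164, 177 and 215 CPM in EA, a log2 fold change of -0.51 (SE 0.09, adjusted p = 9.49e-05, edgeR). Per kilobase, PSMD2 was at 148% ± 6.32 of PSMD1 in DMSO and at 472% ± 45.3 in EA (SD, n = 3 each, exact permutation p = 0.1, the smallest possible, 0.117 adjusted over 7 ratios). PSMD4 fell from 143, 139 and 127 CPM to 74.1, 81.9 and 78.6 CPM, a log2 fold change of -0.80 (SE 0.07, adjusted p = 4.25e-08, edgeR).

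PSMD2 was the member of the 26S complex with the highest level per kilobase in EA, at 261 CPM, where PSMB5 had been highest in DMSO at 302 CPM per kilobase. GENCODE 29 places no other gene over the PSMD2 transcript.

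The lid removes ubiquitin chains from substrates, through the deubiquitinase PSMD14 and its partner PSMD7, around a scaffold of further subunits. Of its 8 genes, 7 fell and PSMD12 was not called. PSMD6 had the deepest fall, from 86.9, 85.8 and 88.5 CPM in DMSO to 44.2, 45.1 and 40.3 CPM in EA, a log2 fold change of -1.01 (SE 0.07, adjusted p = 3.31e-09, edgeR). PSMD3, PSMD7, PSMD8, PSMD11 and PSMD13 had log2 fold changes of -0.54, -0.59, -0.46, -0.67 and -0.67. With GC content and length corrected for, PSMD3, PSMD8 and PSMD13 stayed called at smaller values of -0.28, -0.22 and -0.34. PSMD14 was at 158, 147 and 148 CPM in DMSO and at 127, 130.1 and 139 CPM in EA, a log2 fold change of -0.19 (SE 0.07, adjusted p = 0.0143, edgeR). The groups did not overlap in any of these 7 genes, but the call for PSMD14 was lost without DMSO replicate 1 (adjusted p = 0.0527), in DESeq2 (0.0545) and once GC content and length were corrected for, which gave a log2 fold change of -0.0029 (adjusted p = 0.96).

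PSMD12, a scaffold subunit of the lid, was at 111, 108 and 109.9 CPM in DMSO and at 113, 129 and 117 CPM in EA. Every EA library lay above every DMSO library by a small margin. The log2 fold change of 0.13 (SE 0.07, adjusted p = 0.0939, edgeR) did not pass the threshold, and with RLE scaling it was 0.16 (adjusted p = 0.0357), and without a filter on low counts -0.0017 (adjusted p = 0.986).

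The base is assembled with the help of chaperones that leave before the particle is complete. Of these, PSMD5 fell from 39.4, 39.0 and 41.1 CPM in DMSO to 21.5, 19.3 and 21.5 CPM in EA, a log2 fold change of -0.94 (SE 0.08, adjusted p = 4.44e-08, edgeR). PSMD9 rose from 1.63, 1.26 and 0.944 CPM to 3.49, 2.65 and 2.27 CPM, a log2 fold change of 1.12 (SE 0.25, adjusted p = 0.000874, edgeR), without overlap and from 24 to 56 reads per library. Other genes on the same strand, WDR66 and AC069503.2, cover 43.8% of its transcript. WDR66 rose more than PSMD9, with a log2 fold change of 2.20 (SE 0.21, adjusted p = 1.05e-07, edgeR). It had 34, 38 and 44 reads in DMSO and 110, 172 and 108 reads in EA. AC069503.2 had 1, 3 and 0 reads in DMSO and 2, 4 and 1 reads in EA, under the filter. The part of these overlaps in the PSMD9 count and its rise was not tested. PSMD10, also called gankyrin and known as an oncoprotein of liver cancer, was at 40.0, 35.4 and 43.0 CPM in DMSO and at 28.3, 31.7 and 33.9 CPM in EA, a log2 fold change of -0.33 (SE 0.09, adjusted p = 0.0043, edgeR).

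The call for PSMD10 was lost with GC content and length corrected for (log2 fold change -0.11, adjusted p = 0.243), and its direction depended on how reads of its pseudogene were treated. The pseudogene PSMD10P2 had 12, 18 and 9 reads in DMSO and 161, 210 and 247 reads in EA. That is 0.535 ± 0.22 CPM in DMSO and 11.4 ± 1.54 CPM in EA (SD, n = 3 each), with a log2 fold change of 4.42 (SE 0.23, adjusted p = 7.8e-11, edgeR). With the reads of pseudogenes added to their parent genes, PSMD10 had a log2 fold change of 0.09 (adjusted p = 0.386). PSMD10P2 lies inside another transcribed gene on the opposite strand in GENCODE 29, and whether its reads came from PSMD10, from that gene or from the pseudogene was not tested.

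The activators cap the core in place of the regulatory particle. Their genes moved in both directions. PSME1 and PSME2 are induced by interferon and form a ring that aids the production of antigen peptides. PSME1 fell from 216, 203 and 199 CPM in DMSO to 62.6, 73.8 and 80.7 CPM in EA, a log2 fold change of -1.51 (SE 0.08, adjusted p = 3.37e-10, edgeR). PSME2 fell from 198, 199 and 193 CPM to 53.2, 58.5 and 63.4 CPM, a log2 fold change of -1.75 (SE 0.07, adjusted p = 6.69e-12, edgeR). For both partners of the ring, the highest EA library lay far below the lowest DMSO library.

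PSME3, a nuclear activator built from a single kind of subunit, was at 241, 234 and 236 CPM in DMSO and at 199, 207 and 208 CPM in EA. This small fall, a log2 fold change of -0.21 (SE 0.06, adjusted p = 0.00438, edgeR), had no overlap between the groups, and did not pass a test against a minimum fold of 1.2 (adjusted p = 0.6). PSME4, a large nuclear activator known for the degradation of acetylated histones, rose from 436, 421 and 452 CPM to 762, 737 and 745 CPM. All EA libraries lay above all DMSO libraries, with a log2 fold change of 0.78 (SE 0.06, adjusted p = 1.57e-08, edgeR), a fold of 1.71. The inhibitor PSMF1 fell from 232, 224 and 225 CPM to 119, 125 and 130.4 CPM, a log2 fold change of -0.86 (SE 0.06, adjusted p = 4.94e-09, edgeR).

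The order of the activators by level per kilobase differed between the groups. Per kilobase, PSME3 was at 116% ± 3.52 of PSME1 in DMSO and at 288% ± 31.0 in EA (SD, n = 3 each). PSME4 was at 30.1% ± 1.9 of PSME1 in DMSO and at 148% ± 21.6 in EA. PSME2, the obligate partner, was at 68.4% ± 2.40 of PSME1 in DMSO and at 58.0% ± 2.53 in EA. For each of these 3 ratios the groups did not overlap, and the two-sided exact permutation p was 0.1, the smallest possible (0.117 adjusted over 7 ratios).

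The PSMG proteins are chaperones of the alpha ring, PSMG1 paired with PSMG2 and PSMG3 paired with PSMG4. PSMG1 had the deepest fall of all 46 members, from 50.4, 45.6 and 53.0 CPM in DMSO to 9.58, 9.91 and 9.25 CPM in EA. The libraries of each group were close together and far from the other group, with a log2 fold change of -2.37 (SE 0.09, adjusted p = 3.65e-12, edgeR). Its partner PSMG2 went from 40.1, 37.3 and 39.7 CPM to 33.5, 31.9 and 34.0 CPM, a log2 fold change of -0.24 (SE 0.08, adjusted p = 0.0107, edgeR), which turned to 0.06 (adjusted p = 0.414) once GC content and length were corrected for. PSMG3 and PSMG4 had log2 fold changes of -0.51 (SE 0.12) and -0.81 (SE 0.10), the former -0.32 with GC content and length corrected for. The partners of the first pair thus differed widely in the size of their fall, while the difference itself was not tested.

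**Figure D4:**
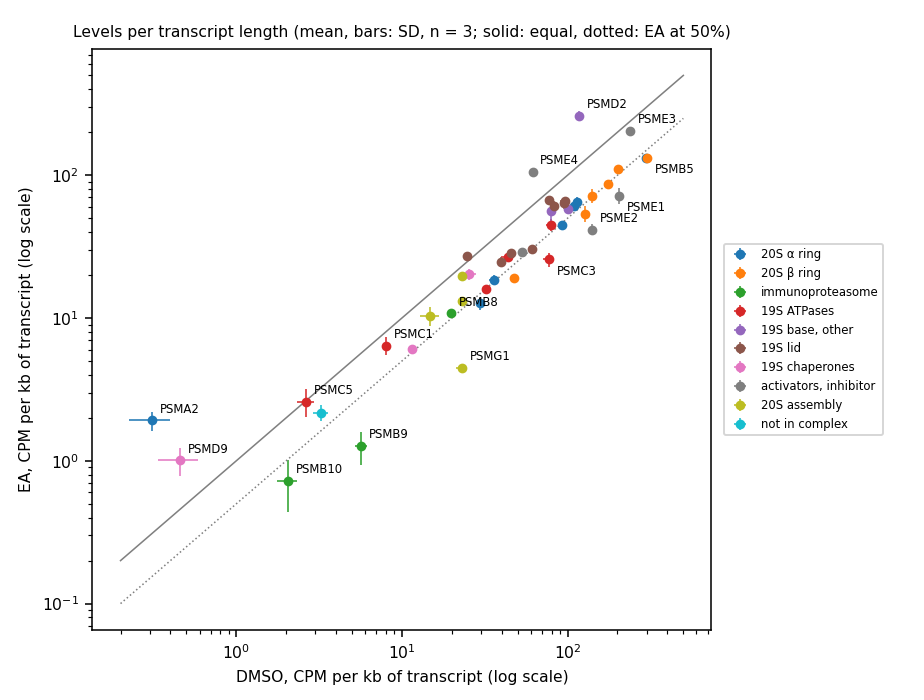
Level per kilobase of transcript (CPM per kb, log axes) of each tested member in DMSO against EA, as means with SD (n = 3), with a solid line of equal levels and a dotted line where EA is at 50% of DMSO. Core ring genes other than PSMA2 lie near the dotted line, whereas PSMD2 lies above it at 117 in DMSO and 261 in EA, and PSMA2 and PSMD9 lie far down at the left.

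Per kilobase of transcript, the summed level of the alpha ring was 680.3 ± 3.01 CPM in DMSO and 336 ± 19 CPM in EA (SD, n = 3 each). The constitutive beta ring summed to 996 ± 39.9 CPM per kilobase and 474 ± 31.7, and the ATPases to 243 ± 6.72 and 122 ± 9.26. The lid summed to 523 ± 10.5 CPM per kilobase in DMSO and 369 ± 20.4 in EA. The other base subunits had a higher sum in EA, 298 ± 10.1 against 375 ± 31.1, with PSMD2 higher and PSMD1 and PSMD4 lower. Among core genes with a mean of at least 500 reads (12 genes), the log2 fold changes had an SD of 0.17, and among such regulatory-particle genes (16 genes) an SD of 0.59, or 0.39 without PSMD2. That order rests on the read minimum: over all constitutive genes with a row, PSMA2 included, the SD was 1.03 in the core (13 genes) and 0.58 in the regulatory particle (17 genes). The levels used 1 annotated transcript per gene, so a long annotated end lowers a gene's value.

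Genes that act with the proteasome but lie outside the symbol rule moved in both directions. Of 17 further subunits and factors, 6 rose (35.3%), 8 fell (47.1%) and 3 were not called, with a median log2 fold change of -0.10, shares near the 40.5% higher and 40.5% lower of all genes tested. SEM1, a small lid subunit, fell by 0.77 on the log2 scale, and ADRM1, a ubiquitin receptor of the base, had -0.18 (SE 0.07, adjusted p = 0.0359, edgeR), or 0.09 (adjusted p = 0.165) once GC content and length were corrected for. POMP, the maturation factor of the core, went from 76.9 to 58.9 CPM on average, a log2 fold change of -0.39 (SE 0.08, adjusted p = 0.000265, edgeR). PAAF1, a chaperone of the ATPases, fell most, from 20.5 to 5.97 CPM on average, a log2 fold change of -1.78 (SE 0.12, adjusted p = 2.31e-09, edgeR). ZFAND5, which stimulates the proteasome, rose most, from 141 to 324 CPM, a log2 fold change of 1.2 (SE 0.07, adjusted p = 3.49e-10, edgeR). Of the deubiquitinases bound to the regulatory particle, USP14 fell by 0.36 on the log2 scale and UCHL5, at -0.10, was not called (adjusted p = 0.209, edgeR), but passed without EA replicate 3 (-0.18, adjusted p = 0.0208) and with GC content and length corrected for (-0.46, adjusted p = 2.58e-05).

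Of 10 tested genes for the transcription of proteasome genes, 6 rose, 2 fell and 2 were not called, or 60% and 20% against 40.5% and 40.5% of all genes tested, with a median log2 fold change of 0.44 against 0.0044. NFE2L1, the main activator, was at 347, 340.1 and 337 CPM in DMSO and at 319.9, 325 and 323 CPM in EA. Its log2 fold change of -0.08 (SE 0.06, adjusted p = 0.223, edgeR) did not pass the threshold, while its libraries did not overlap. With no filter on low counts it was -0.21 and passed (adjusted p = 0.0108). DDI2, the protease that releases NFE2L1 from the membrane of the endoplasmic reticulum, rose from 124 ± 4.92 to 176 ± 9.58 CPM (SD, n = 3 each), a log2 fold change of 0.50, or 0.13 with GC content and length corrected for. MAFK, a small partner of NFE2L1 on DNA, rose from 31.5, 36.0 and 33.3 CPM to 150.4, 140.5 and 134 CPM, a log2 fold change of 2.08 (SE 0.08, adjusted p = 1.63e-12, edgeR). NFYB, a subunit of the factor that binds CCAAT, had a log2 fold change of -0.995 (SE 0.11).

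Of 17 genes for ubiquitin, its activation and the segregase p97, 4 rose (23.5%), 8 fell (47.1%) and 5 were not called, against 40.5% and 40.5% of all genes tested. UBB, which encodes a polyubiquitin, fell from 448 to 158 CPM on average (log2 fold change -1.50, SE 0.08). The conjugating enzymes ranged from UBE2C, which acts in mitosis, at -2.22 (SE 0.21) to UBE2D1, which rose from 24.4 to 114 CPM on average, at 2.23 (SE 0.08, adjusted p = 6.86e-13, edgeR). Among 7 partners of the immunoproteasome in antigen presentation, 3 fell (42.9%), 0 rose and 4 were not called, so that the share that fell was near the 40.5% of all genes tested. NLRC5, the activator of MHC class I genes, fell from 11.7, 12.3 and 12.7 CPM to 1.87, 2.01 and 3.22 CPM, a log2 fold change of -2.35 (SE 0.17). ERAP1, which trims antigen peptides, fell by 1.72 on the log2 scale, and IRF1 had a log2 fold change of 0.28 that was not called (adjusted p = 0.0557, edgeR) but passed without EA replicate 3 (0.34, adjusted p = 0.0022). TAP1, the peptide transporter beside PSMB9 in the genome, named here after its value was seen, had 0.09 (adjusted p = 0.288, edgeR).

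PSMC3IP, the member that is no subunit, fell from 4.60 ± 0.49 to 3.08 ± 0.40 CPM (SD, n = 3 each), a log2 fold change of -0.58 (SE 0.17, adjusted p = 0.0067, edgeR).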

How the data were processed

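The authors deposited raw read counts per gene, whole numbers that are not normalised, for 6 libraries. The submitters' processing notes name hg19, HTSeq 0.6.1, HISAT, cutadapt 1.9.1 and bcl2fastq 2.17.1.14. The annotation release and the strand setting were not given in the sources used here. Reads from stretches that overlapping genes share, on either strand, therefore cannot be told apart.

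From the counts, genes were filtered with filterByExpr (15648 kept of 52408), scaled by TMM and compared between EA and DMSO with edgeR 4.0.16 (R 4.3.3, robust quasi-likelihood F test, Benjamini-Hochberg over all genes tested, adjusted p 0.05). Levels are in CPM, computed with library sizes scaled by TMM, and SE is the log2 fold change over the square root of F. The common biological coefficient of variation was 7.96%. EA replicate 3 stood further from the other EA libraries (chi-square per degree of freedom 13.4 and 15.5) than the other replicates did from each other (3.56 to 4.59). The test was also run on simulated counts in which few genes changed and all had the same biological coefficient of variation. As 81.0% of genes were called in the real data, that run does not show how the test performs on them.

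Lengths, GC content and gene overlap were taken from GENCODE 29 (GRCh38, not the authors' hg19) for 99.9% of tested genes (1 principal transcript each). Promoter windows came from RefSeq on GRCh38.p14. Library values are given for each role group's smallest p, highest and lowest log2 fold change, members not called or called against their group, and the immunoproteasome subunits with those they replace, and for some further members whose values were known. The accessory genes named are each list's smallest p and extremes, with some that are always given; 1 gene that this rule takes is not reported here. The members and lists were chosen with earlier results of these data known.

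The 19 alternatives were DESeq2 1.42.0, limma-voom (limma 3.58.1), scaling by RLE, by upper quartile or by library size alone, no filter, at least 1 CPM in 3 libraries, an adjusted p of 0.01, a minimum fold of 1.2, thinning to equal depth, GC and length correction, a replicate block, pseudogene reads added to parents, and each library left out.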

Additional observations from a re-analysis of the deposited data

How the results depend on the processing

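Over 19 alternatives, 39 to 45 of 46 to 47 tested proteasome genes were called, 35 to 40 lower and 4 to 5 higher. Of all genes, 11130 (of 15648 tested, minimum fold of 1.2) to 14923 (of 32015 tested, no filter) were called. The number of genes tested differed between settings, so these counts are not shares. Leaving out each library in turn gave 43 to 44 of 46 tested proteasome genes called, 39 to 40 lower and 4 higher. Of all genes, 12302 (of 16006 tested, without DMSO replicate 1) to 13613 (of 16444 tested, without EA replicate 3) were called. In these fits 6104 to 6794 genes were higher and 6167 to 6819 lower. The members' median log2 fold change was -0.95 without a filter on low counts, where the median of all genes moved to 0.25, and -0.74 after correction for GC content and length. PSMC5 changed sign to 0.00597 in DESeq2, 0.0033 with RLE scaling, 0.0092 with the stricter filter, 0.25 after GC and length correction and 0.0801 without EA replicate 3 (-0.21 to 0.0801 over the libraries left out), and was not called in any setting. PSMD12 turned to -0.0017 without a filter. PSMG2 turned to 0.0644 and ADRM1 to 0.0944 after GC and length correction, and PSMD10 to 0.0878 with pseudogene reads added. The cause was not tested. Calls for PSMC1, PSMD10, PSMD14, PSME3 and PSMG2 were lost against a minimum fold of 1.2. Low depth limits PSMA2, PSMD9 and PSMB10 (SE 0.28, 0.25 and 0.29).

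Deviations of same-numbered libraries from their group means correlated at -0.06, 0.02 and -0.01, and those of differently numbered libraries at -0.04 to 0.05. With 3 libraries per group, such values cannot show whether the numbers mark a shared culture or day. With a replicate block, 12537 of 15648 genes tested were called (6246 higher, 6291 lower), and 44 of 46 proteasome genes, 40 lower and 4 higher.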

Other observations

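RNAs named as antisense to members did not follow a single direction. By class in the deposited counts, PSMA3-AS1 is antisense, and PSMG3-AS1 and PSMB8-AS1 are lincRNA (long intergenic). PSMA3-AS1 was at 29 CPM in DMSO and 29.3 CPM in EA on average (log2 fold change 0.02, not called), while PSMA3 fell. PSMG3-AS1 rose from low counts, 19, 14 and 18 reads in DMSO and 20, 32 and 34 reads in EA, while PSMG3 fell. Its log2 fold change was 1.2 (SE 0.28, adjusted p = 0.000944, edgeR's quasi-likelihood test). PSMB8-AS1, at 19, 12 and 12 reads in DMSO and 11, 5 and 7 reads in EA, had a log2 fold change of -0.43 that was not called (adjusted p = 0.346, edgeR). The strand setting of the counting is unknown here. In GENCODE 29 no other gene lies over the transcripts used for PSMA3, PSMG3 and PSMB8, and their other transcripts were not examined. The pseudogene PSMC1P1 fell by 0.57 on the log2 scale (adjusted p = 0.0155, edgeR), beside a log2 fold change of -0.33 for PSMC1.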
